A study of Mus musculus with 226 samples.

Results

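The clustered protocadherins alpha, beta and gamma were followed as single isoforms through single spiral ganglion neurons, which pass signals from the hair cells of the cochlea on to the brain. Members were all genes of the count table whose symbol begins with Pcdha, Pcdhb or Pcdhg and goes on with a digit, an a or a c. This gave 51 of 24491 genes: 12 alpha isoforms, 22 beta isoforms, 12 gamma A isoforms and the 5 C-type isoforms Pcdhac1, Pcdhac2, Pcdhgc3, Pcdhgc4 and Pcdhgc5. The 7 Pcdhgb isoforms of the table fall outside that choice and are given only beside it. RNA was measured by Smart-seq2, a method that reads whole transcripts from single cells, in hand-picked cells that glowed with the reporter tdTomato. All mice carried bhlhb5::cre, which switches on the Ai14 reporter, each as 1 copy (bhlhb5::cre/+; Ai14/+), so every cell comes from the neurons in which this driver is or was active. The Wildtype cells, 56 from the Apex, 88 from the Middle and 42 from the Base, had no further allele, and the 40 Vglut3-/- cells lacked the vesicular glutamate transporter (gene Slc17a8) with which inner hair cells release glutamate.

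Apex, Middle and Base are places along the cochlea, and ages are postnatal days. Apex cells came from P26 (12 cells) and P27 (44), Middle cells from P25 (2), P26 (52) and P27 (34), while the Base gave 41 cells at P26 and 1 at P25. All Vglut3-/- cells were from the Middle, with 11 from P25, 4 from P26 and 25 from P27. Each sample is 1 cell, and the labels name no animal, litter or day of preparation. A group of cells was therefore treated as 1 sample, no test between groups was made, and the SD values below are over cells. The intervals are exact 95% intervals of a share of cells. They take the cells as independent and cover only the limited number of cells. Counts are of reads, which carry no molecular identifiers. Differences between animals or preparations cannot be told apart from those between groups.

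Clustered protocadherins are adhesion proteins of the neuronal surface that bind the same isoform on an apposed cell. Each variable exon has its own promoter and is spliced to constant exons shared by the alpha or the gamma isoforms, while beta isoforms are single-exon genes with no constant exons. In most neurons studied, alpha, beta and gamma A or B isoforms are chosen in a cell-by-cell fashion with the DNA-looping factors CTCF and cohesin, and the combination gives a cell an identity used in self-avoidance of its branches. C-type isoforms are known for a broader expression than the others. In serotonergic neurons Pcdhac2 is the dominant isoform, and Pcdhgc4 is known for its part in the survival of neurons.

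The members lie in 3 neighbouring clusters on chromosome 18 (GRCm38/mm10, GENCODE M21). The alpha isoforms span positions 36930184 to 37187661, the beta isoforms 37264938 to 37524479 and the gamma isoforms 37661793 to 37841873. Pcdhac2 starts at 37143503 and closes the alpha cluster, and Pcdhgc3, Pcdhgc4 and Pcdhgc5 start at 37806364, 37815079 and 37819513 and close the gamma cluster. Because alpha isoforms share their last exons with each other, and gamma isoforms likewise, a read in a constant exon cannot name its isoform. How the authors' counting treated such reads is not given in the sources used here. In the 20 cells with Pcdhac2 at 100 CPM or more, a median of 11 of the 13 other alpha-cluster isoforms had 0 counts (lowest 9). In the 3 cells with Pcdhgc3 or Pcdhgc4 at that level, a median of 17 of the 20 other gamma-cluster isoforms, Pcdhgb included, had 0 counts (lowest 14). Most other isoforms of the cluster were thus at 0 counts in those cells, but so were 80.0% of the values of all members over all cells. Cells with low levels of these isoforms were not set beside them. These counts therefore do not show how shared reads were treated.

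The depth of a cell, its counts summed over genes, ran from 604006 to 5284683 with a median of 2.6e+06. The 6 markers of neurons summed to at least 5193 CPM in every Wildtype cell, and Tubb3 was at 10 CPM or more in every cell. The 8 markers of Schwann and satellite glia summed to a median of 0 CPM and at most 65.3 CPM in Wildtype cells and 68.6 CPM in Vglut3-/- cells, and 3 of the 8 had 0 counts in all Wildtype cells. Slc17a8, which hair cells express, had 0 counts in all cells of both genotypes, so it checks no label here. The share of spike-in RNA, added to each cell, was 3.10% in the median Wildtype cell and 1.23% in the median Vglut3-/- cell, and it also differed between Wildtype groups (median 4.48% in Apex P27 and 0.799% in Base P26). Its part in the differences between groups below was not tested except where cells with 2% or more are left out.

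Protocadherin RNA was sparse within a cell and present in every cell. An isoform was called present at 10 CPM, with a cell's counts on genes scaled to the same total in every cell, and the lowest count that met this was 8. Of 11526 pairs of a member and a cell, 9221 (80.0%) had 0 counts and 1496 (13.0%) had 10 CPM or more. The median level of a present isoform was 33.1 CPM, with quartiles of 19.7 and 58.0 CPM and a highest value of 323.6 CPM for Pcdhb17. Just above the limit, 200 pairs had 10 to under 15 CPM, and just below it 302 pairs had 5 to under 10 CPM. Most pairs were thus at 0 counts. Of the 2305 pairs with a count, 64.9% reached the limit and the rest lay below it.

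**Figure D1:**
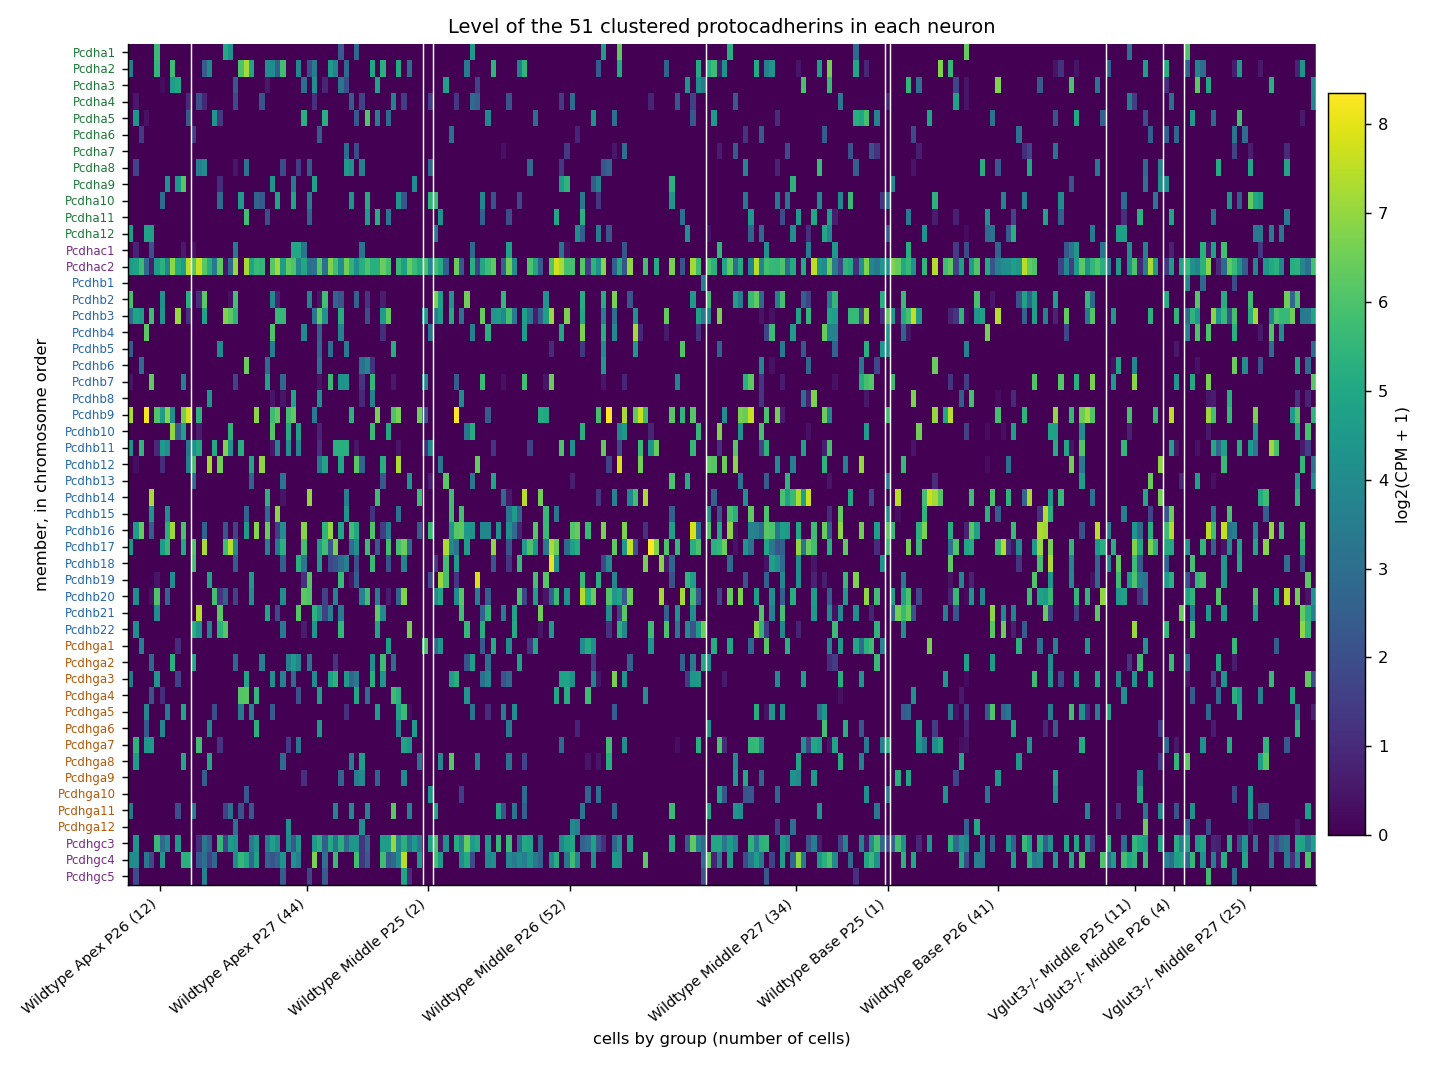
Level of each of the 51 members (vertical, in chromosome order, alpha names in green, beta in blue, gamma A in orange, C-type in purple) in each cell (horizontal, by group), as log2(CPM + 1). Pcdhac2 has the most filled row, with 68.3% of Wildtype cells at 10 CPM or more, and 80.0% of the field is at 0 counts.

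A Wildtype neuron had a median of 6 members present, with a lowest of 2, a highest of 13 and a mean of 6.60 ± 2.09 (SD over cells). A Vglut3-/- neuron had a median of 7, from 3 to 12, and a mean of 6.73 ± 2.35 (SD, n = 40 cells). No Wildtype cell was without a member (exact interval of the share 0% to 1.96%). Beta isoforms made up most of the number, with 3.39 ± 1.48 per Wildtype cell, against 1.48 ± 0.965 C-type, 1.01 ± 0.841 gamma A and 0.715 ± 0.771 alpha isoforms. In counts the order was similar: beta isoforms held 61.9% of all member counts of Wildtype cells, C-type isoforms 20.3%, gamma A 9.61% and alpha 8.18%. The Vglut3-/- shares were 63.1%, 17.3%, 10.5% and 9.15%.

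The families differed in how often a cell had none of them. At least 1 beta isoform was present in all but 2 Wildtype cells, and 71.5% of them had 3 or more. No alpha isoform was present in 82 Wildtype cells (44.1%, interval 36.8% to 51.5%), exactly 1 in 81 and more than 1 in the rest. No gamma A isoform was present in 57 Wildtype cells (30.6%, interval 24.1% to 37.8%). For Vglut3-/- cells the share without an alpha isoform was 45% (interval 29.3% to 61.5%) and that without a gamma A isoform 37.5% (22.7% to 54.2%). Adding the 7 Pcdhgb isoforms raised the Wildtype mean to 6.85 ± 2.18, since 78.5% of Wildtype cells had none of them.

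The protocadherin RNA of a cell was usually spread over several isoforms. The highest isoform took a median of 33.5% of a Wildtype cell's member counts, from 13.8% to 77.4%, and 28.8% in Vglut3-/- cells. The effective number, which is the number of equally used isoforms that would give the same evenness, had a median of 4.81 in Wildtype and 5.49 in Vglut3-/- cells. Summed over members the level was a median of 316 CPM (89.5 to 757 CPM) in Wildtype and 299 CPM (77 to 705 CPM) in Vglut3-/- cells, and these ranges overlap. In Wildtype cells 31 different members were the highest isoform of some cell, led by Pcdhac2 in 28 cells and Pcdhb16 and Pcdhb9 in 22 each.

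Among the beta isoforms, Pcdhb17 was present in 34.9% of Wildtype cells (interval 28.1% to 42.3%), Pcdhb16 in 33.3%, Pcdhb3 in 30.6%, Pcdhb20 in 28.5% and Pcdhb9 in 26.9%. Their intervals overlap, so the order among these 5 is not resolved at this number of cells. Pcdhb1, the first gene of the cluster, was present in 1 Wildtype cell (0.538%). Pcdhb9 had the highest level where present, a median of 70.7 CPM among these 5, against 45.8 CPM for Pcdhb17 and 35.6 CPM for Pcdhb3. In Vglut3-/- cells Pcdhb17 was present in 35%, Pcdhb16 in 32.5%, Pcdhb3 in 45% and Pcdhb20 and Pcdhb9 in 25% each, each within overlapping intervals of its Wildtype share.

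Alpha isoforms were rarer. Pcdha2 was present in 17.7% of Wildtype cells (interval 12.5% to 24%), Pcdha10 in 9.68%, Pcdha5 in 8.06%, Pcdha9 in 6.99%, and Pcdha3 and Pcdha11 in 6.45% each. Pcdha6 and Pcdha7 reached 10 CPM in no cell, with highest levels of 8.57 and 8.34 CPM. Pcdha4, Pcdha6 and Pcdha7 had the lowest total counts of the alpha isoforms (356, 146 and 120). Each of them is overlapped by a read-through gene that the count table lists on its own: Gm37013 with 17 counts, Gm38666 with 54 and Gm38667 with 85. Whether reads in shared exons were lost from these members was not tested.

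Gamma A isoforms were led by Pcdhga3 in 16.1% of Wildtype cells (interval 11.2% to 22.2%), followed by Pcdhga1 in 13.4%, Pcdhga7 in 12.9%, Pcdhga5 in 9.14% and Pcdhga2 in 8.60%. Pcdhga10 and Pcdhga12 were the rarest, with 2.69% each. In Vglut3-/- cells Pcdhga3 was present in 15%, Pcdhga7, Pcdhga5 and Pcdhga2 in 7.5% each, and Pcdhga1 in 5%.

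**Figure D2:**
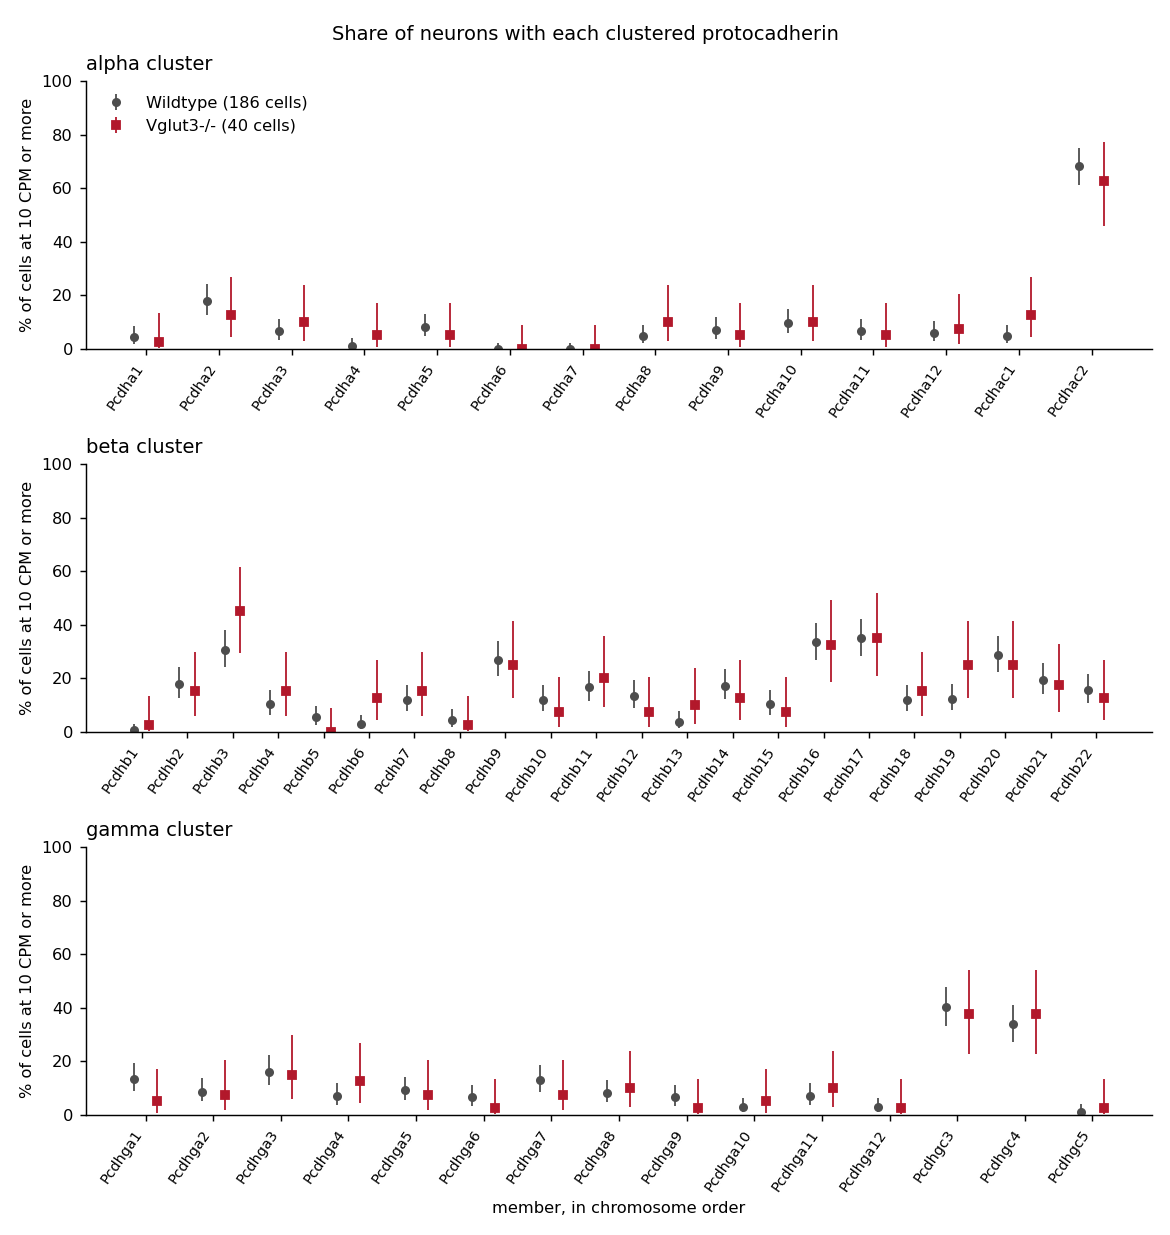
Percent of cells with 10 CPM or more of each member (vertical) for the alpha, beta and gamma clusters in chromosome order, for the Wildtype cells (grey circles) and 40 Vglut3-/- cells (red squares), with exact 95% intervals. Pcdhac2 stands at 68.3% of Wildtype cells, above every other member, and the Wildtype and Vglut3-/- intervals overlap for every member.

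The C-type isoforms Pcdhac2 and Pcdhgc3 were the most widely present single members in Wildtype cells. At least 1 C-type isoform was present in 82.8% of Wildtype cells (interval 76.6% to 87.9%) and in 36 of 40 Vglut3-/- cells (90%, interval 76.3% to 97.2%). Pcdhac2 was present in 68.3% of Wildtype cells (interval 61.1% to 74.9%), with levels from 0 through a median of 29.6 to a highest of 219.3 CPM. Pcdhgc3 followed with 40.3% (33.2% to 47.7%) and a highest level of 128.5 CPM, and Pcdhgc4 with 33.9% (27.1% to 41.2%) and a highest level of 172 CPM. Pcdhac1 was present in 9 Wildtype cells (4.84%) and Pcdhgc5 in 2 (1.08%). The C-type isoforms therefore fell into 3 that were common and 2 that were as rare as the rarer variable isoforms.

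Per length of exon that no other listed gene overlaps, Pcdhac2 also had the highest summed level in Wildtype cells, 12.8 CPM per kb. Pcdhb9 had 7.85, Pcdhb17 4.92, Pcdhb20 4.47, Pcdhb3 4.28, Pcdhb16 3.89, Pcdhgc3 3.69 and Pcdhgc4 3.17 CPM per kb. This level is a mean over all cells, so it joins the share of cells and the level where present.

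In Vglut3-/- cells Pcdhac2 was present in 25 of 40 cells (62.5%, interval 45.8% to 77.3%), Pcdhgc3 in 37.5% and Pcdhgc4 in 37.5%. The summed level of Pcdhac2 was 23.4 CPM in Vglut3-/- and 38.8 CPM in Wildtype cells. Within the Middle at P27 it was 25 CPM (25 cells, median 17.4, highest 116) against 37 CPM (34 cells, median 25.8, highest 182.9), and the cells of the groups overlap. Pcdhac1 was present in 5 Vglut3-/- cells (12.5%, interval 4.19% to 26.8%), an interval that overlaps the Wildtype one.

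Along the cochlea Pcdhac2 was present in 45 of 56 Apex cells (80.4%, interval 67.6% to 89.8%), 53 of 88 Middle cells (60.2%, 49.2% to 70.5%) and 29 of 42 Base cells (69%, 52.9% to 82.4%), with overlapping intervals. Within P27 the shares were 79.5% in the Apex and 70.6% in the Middle, and within P26 they were 83.3% in the Apex, 51.9% in the Middle and 68.3% in the Base. Pcdhgc3 was present in 42.9%, 40.9% and 35.7% and Pcdhgc4 in 33.9%, 35.2% and 31% of Apex, Middle and Base cells. Middle cells at P26 had the lowest share with any C-type isoform among the Wildtype groups of at least 10 cells, 69.2% (interval 54.9% to 81.3%), against 91.2% (76.3% to 98.1%) in Middle cells at P27. In Vglut3-/- cells the share was 84% at P27 and 100% of the 15 cells from P25 and P26, where Wildtype Middle cells of those days had 70.4% (56.4% to 82%), so the order of the genotypes turned between the sets of days. The intervals overlap. Most Wildtype Middle P26 cells without a C-type isoform lie in a single run of neighbouring label numbers, singled out after its values were seen. Cells of this run also had fewer members on average than the other Wildtype Middle P26 cells. The labels do not say what the run stands for, and its part in these shares was not tested.

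**Figure D3:**
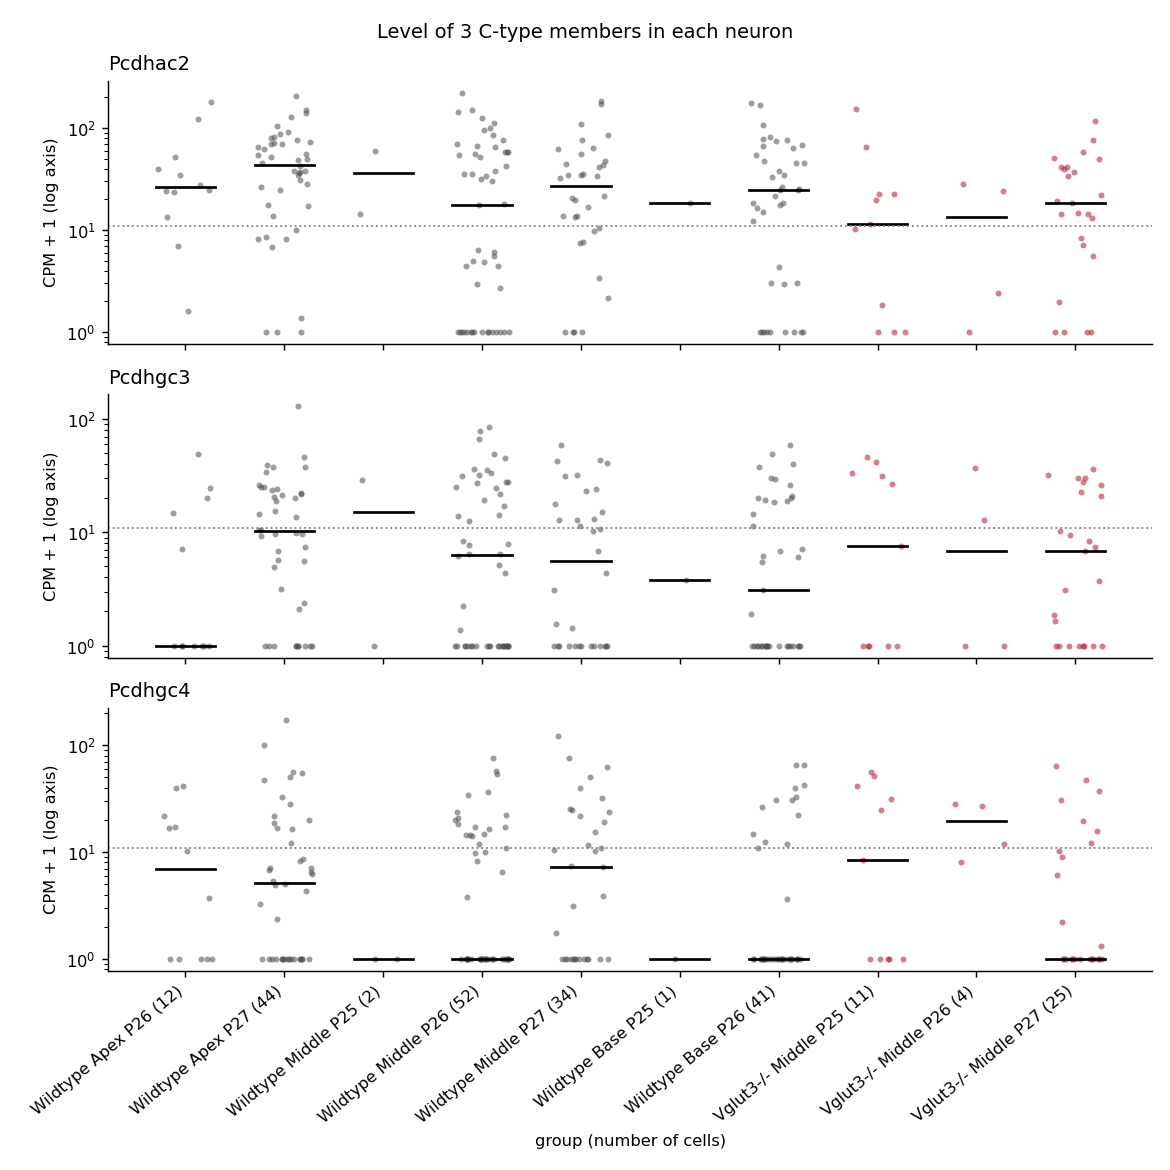
Level of Pcdhac2, Pcdhgc3 and Pcdhgc4 (CPM + 1, log axis) in each cell by group, with the median as a black line and the limit of 10 CPM as a dotted line, Wildtype in grey and Vglut3-/- in red. In every group of at least 10 cells the levels of each isoform run from under 1 CPM to more than 10 CPM, and the groups overlap.

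Pairs of C-type isoforms occurred in the same Wildtype cells slightly more often than their separate shares give. Pcdhac2 and Pcdhgc3 occurred together in 57 Wildtype cells, where 51.2 would follow from their separate shares, Pcdhac2 and Pcdhgc4 in 47 (43) and Pcdhgc3 and Pcdhgc4 in 29 (25.4). The excess was largest in Middle cells at P26, with 15 cells for Pcdhac2 and Pcdhgc3 against 10.9, while in Middle cells at P27 the same pair had 10 against 9.88 and in Base cells at P26 10 against 10.2. In Vglut3-/- cells Pcdhac2 and Pcdhgc4 occurred together in 7 cells against 9.38. The excess was therefore not seen in every group. In Middle P26 the run of label numbers named above holds many cells without a C-type isoform, and its part in the excess was not tested.

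Cells were next compared by the set of members they had. All cells had different sets, also when the C-type isoforms were left out. A pair of Wildtype cells shared a mean of 1.62 members, and 17% of the 17205 pairs shared none. The most that any pair shared was 7. If every member had been used equally often, cells with these numbers would share 0.853 members, so part of the sharing lies in the unequal use of members. Without the C-type isoforms the mean fell to 0.882 (0.57 with equal use), and 39.1% of pairs shared none. The C-type isoforms alone gave 0.742 shared members per pair.

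Sharing was of like size within and across genotypes. A Wildtype and a Vglut3-/- cell shared a mean of 1.61 members, a pair of Vglut3-/- cells 1.56. Within the Middle at P27 the mean was 1.91 for Wildtype pairs, 1.71 for Vglut3-/- pairs and 1.76 across the genotypes. Along the cochlea at P27, Apex pairs shared 1.85, Middle pairs 1.91 and mixed pairs 1.85. At P26, Base pairs shared 1.36, Middle pairs 1.42 and mixed pairs 1.4. Cells at P26 also had fewer members, and a mean of shared members follows from the members' shares of cells. Pairs of one group whose label numbers lie 1 or 2 apart shared 1.67 members (232 pairs) and pairs farther apart 1.60 (3849 pairs). These pairs are pooled over groups that differ in size and in sharing. The means therefore mix group and label distance, which was not compared within a group.

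Neuron subtypes were approached through Calb2, the calretinin gene that is highest in one class of these neurons, and Lypd1, a marker of another. Of the Wildtype cells, 5 had Th at 100 CPM or more and were set apart, 48 had Lypd1 at 100 CPM or more, 62 of the others had Calb2 at 5000 CPM or more and 71 had less. These are ranges of a level and not cell types, and 25 Wildtype cells lie within 1.5 times of the Calb2 limit and 3 of the Lypd1 limit. The 4 markers of the Ic class (Lypd1 itself is 1 of them) summed to a median of 5499 CPM in Lypd1-positive cells and 0.422 CPM in Calb2-high cells. Of the Vglut3-/- cells, 32 were Calb2-high, 5 Calb2-lower and 3 Lypd1-positive.

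Sharing was of like size within and across these ranges. Pairs within the Calb2-high, Calb2-lower and Lypd1-positive cells shared 1.57, 1.60 and 1.76 members. Pairs that joined Calb2-high with Lypd1-positive cells shared 1.66, Calb2-high with Calb2-lower cells 1.59 and Calb2-lower with Lypd1-positive cells 1.65. Without the C-type isoforms the 3 means within a range were 0.882, 0.900 and 0.901, and the 3 means across ranges were 0.881, 0.897 and 0.898. Pcdhgc3 was present in 56.2% of Lypd1-positive cells (interval 41.2% to 70.5%), 38.7% of Calb2-high cells (26.6% to 51.9%) and 29.6% of Calb2-lower cells (19.3% to 41.6%). Pcdhac2 had nearly the same share in each, 68.8%, 69.4% and 67.6%. Pcdhgc4 was present in 29.2%, 25.8% and 40.8%, with overlapping intervals. These shares pool the days, and the ranges differ in their mix of days. For Pcdhgc3, Lypd1-positive and Calb2-high cells had nearly the same share at P26, and Lypd1-positive cells a higher one at P27.

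**Figure D4:**
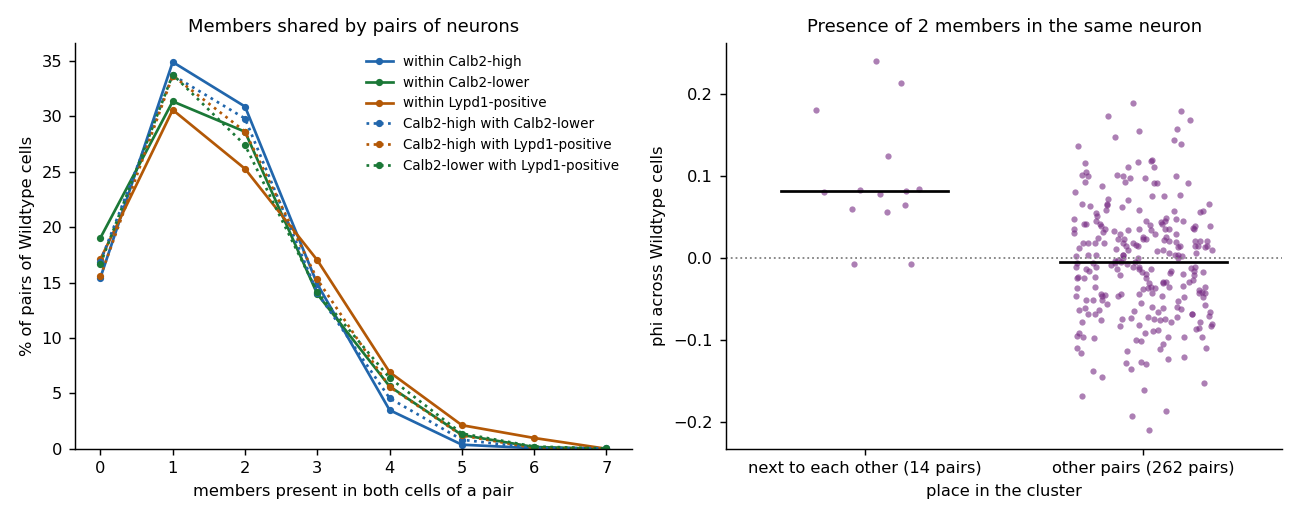
Left, percent of pairs of Wildtype cells (vertical) by the number of members present in both cells (horizontal), for pairs within a range of Calb2 and Lypd1 (solid lines) and across ranges (dotted lines), which lie close together with a peak at 1 member. Right, phi between the presence of 2 members across the Wildtype cells for 14 pairs next to each other in a cluster (median 0.081) and 262 other pairs (median -0.005), with medians as black lines.

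Whether members are chosen independently was described by the spread of their number. If each member were present independently at its own share of cells, the variance of the number per cell would be the sum of the members' variances, and the ratio of the measured to that variance would be near 1. The ratio was 0.880 in all Wildtype cells, 0.977 in Middle P26, 0.782 in Middle P27, 0.752 in Apex P27, 0.787 in Apex P26 and 0.727 in Base P26. It was 1.06 in Vglut3-/- Middle P25 (11 cells) and 1.20 in Vglut3-/- Middle P27 (25 cells). Taking the shares from the same cells lifts the ratio in small groups, so 1.06 in 11 cells cannot be read as above independence. At the limit of 10 CPM the ratio was thus under 1 in these Wildtype groups and above 1 in Vglut3-/- Middle P27. No interval was computed for any ratio, so neither its side of 1 nor a difference between genotypes is settled by these values. This side depends on the limit: in Middle P26 the ratio was 1.4 with 1 count or more as present, 1.54 at 1 CPM and 1.08 with every cell thinned to 5e+05 counts. Without the C-type isoforms the ratio was 0.766 in Wildtype and 1.10 in Vglut3-/- cells, and for the C-type isoforms alone it was 1.26 and 1.16. Differences in depth or RNA content move all members of a cell together and can raise the ratio.

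The numbers of the families within a cell were only weakly related. Across the Wildtype cells Pearson's r was -0.10 between alpha and beta isoforms, 0.00 between alpha and gamma A, -0.02 between beta and gamma A and 0.17 between gamma A and C-type isoforms. These points share the depth of a cell: the number of members had an r of -0.14 with the log10 of the counts and 0.34 with the number of genes that had a count. They are descriptions of these cells.

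Pairs of members were described by phi, a correlation between presence and absence. Phi was computed for the 276 pairs among the 24 members present in at least 10% of Wildtype cells. It ran from -0.21 for Pcdhac2 with Pcdhb14 (15 cells with both, 21.8 if independent) to 0.24 for the neighbours Pcdhb21 and Pcdhb22 (12 cells with both, 5.61 if independent). In GENCODE the exons of Pcdhb21 and Pcdhb22 overlap, so reads between them may count for either. The 14 pairs of neighbours had a median of 0.081 and a lowest of -0.008, and the 262 other pairs a median of -0.005. Among the 4 highest pairs, 3 were neighbours: Pcdhb21 with Pcdhb22, Pcdhb15 with Pcdhb16 (12 cells with both, 6.33 if independent) and Pcdhb2 with Pcdhb3 (16 and 10.1). The values are small, and the pairs share members and cells.

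Between genotypes the mean number of members per cell differed by less than its spread over cells. In the Middle at P27 Vglut3-/- cells had 7 ± 2.47 (SD, n = 25 cells) and Wildtype cells 7.59 ± 2.08 (SD, n = 34 cells). At P25 and P26 together the means were 6.27 ± 2.15 (SD, n = 15 cells) and 6.06 ± 2.10 (SD, n = 54 cells), so the order of the means turned between the sets of days. Vglut3-/- cells are mostly Calb2-high, and among Calb2-high cells of the Middle at all ages the means were 6.22 ± 2.06 (SD, n = 32 cells) in Vglut3-/- and 6.17 ± 2.0 (SD, n = 29 cells) in Wildtype. These pooled means mix days. By day, a split chosen after seeing the data, Vglut3-/- Calb2-high cells had the lower mean in both sets. It was 6.55 (22 cells) against 7.5 (4 cells) at P27, and 5.5 (10 cells) against 5.96 (25 cells) at P25 and P26. These differences are also smaller than the spread over cells. The 5 Calb2-lower Vglut3-/- cells had 7 to 12 members, median 9.

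Along the cochlea the means also differed by less than the spread. At P27 Apex cells had 7.09 ± 1.96 (SD, n = 44 cells) and Middle cells 7.59 ± 2.08. At P26 they had 7.17 ± 1.90 (SD, n = 12 cells), 6.10 ± 2.12 (SD, n = 52 cells, Middle) and 5.73 ± 1.76 (SD, n = 41 cells, Base). Within the Middle, Wildtype cells at P27 and P26 differed by 1.49 members, with ranges of 4 to 13 and 2 to 11 that overlap. Among cells with a spike-in share of 2% or more the same difference was 1.28. Median genes with a count were 8519 and 8179.5, and whether they carry the difference was not tested. The part of the run of Middle P26 label numbers named above was not tested either.

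**Figure D5:**
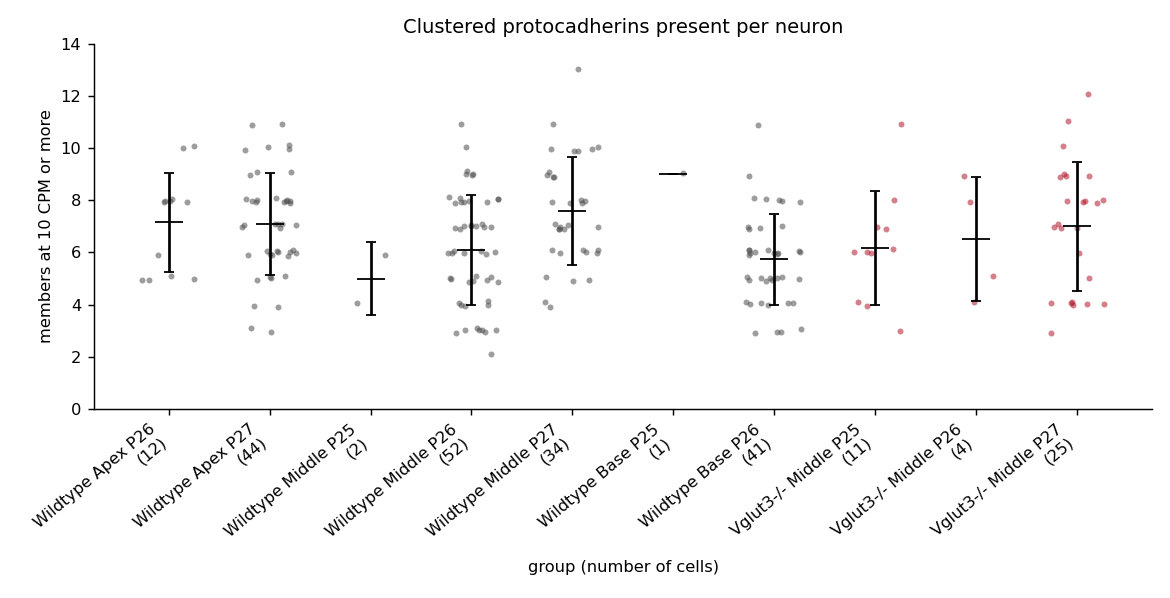
Number of members at 10 CPM or more (vertical) in each cell by group (horizontal, number of cells in brackets), Wildtype in grey and Vglut3-/- in red, with the mean and SD over cells in black. All groups overlap, and group means of at least 10 cells lie between 5.73 and 7.59.

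The same held for the ranges of Calb2 and Lypd1. At P26 Calb2-high cells had 6.07 ± 2.02 members (SD, n = 43 cells), Calb2-lower cells 6.05 ± 2.0 (SD, n = 38 cells) and Lypd1-positive cells 6.13 ± 2.01 (SD, n = 24 cells). At P27 they had 7.83 ± 1.76 (SD, n = 18 cells), 6.97 ± 2.07 (SD, n = 32 cells) and 7.39 ± 2.17 (SD, n = 23 cells). The 5 Th-positive cells, all from the Apex at P27, had 5, 8, 7, 6 and 10 members.

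Th is a marker of type II neurons, a rare kind that innervates outer hair cells. Of the 4 type II markers listed, Th, Ngfr and Gata3 were present in all 5 Th-positive cells and Prph had 0 counts in each. Th defined these cells. Ngfr and Gata3 were also present in nearly all Wildtype and in all 40 Vglut3-/- cells, so their presence does not mark the 5 cells. The summed level of Ngfr was 2403 CPM in Th-positive cells and 271 CPM in all Wildtype cells, and that of Gata3 4797 and 402 CPM. Of the 6 neuron markers, Syt2 had 0 counts in all 5 and Slc17a7 was present in 1, while the other 4 were present in all 5. Among these 5 cells, in the same order, Pcdhga4 was at 66, 70.6, 45.4, 52 and 0 CPM, and Pcdhgc4 at 46.4, 31.9, 27.4, 6.14 and 172 CPM. Pcdhga4 was thus present in 4 of 5 cells, against 6.99% of all Wildtype cells, and Pcdhgc4 also in 4 of 5, against 33.9%. Pcdhac2 was at 0, 149, 48.4, 0 and 25.6 CPM. Pcdhga4 was singled out after its values were seen. In these cells the neuron markers summed to a median of 6370 CPM, and the hair cell markers to a median of 107.9 CPM (highest 315 CPM), all from Myo7a, with Otof, Pou4f3 and Slc17a8 at 0 counts. The part of the hair cell marker in these values was not tested.

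The share of cells with each member was compared between groups by whether the exact intervals were apart. Wildtype cells of all places and days were set against Vglut3-/- cells, which are of the Middle alone. Between them 0 of 49 members had separate intervals, against 3.31% of all genes present in a cell. For Apex against Middle it was 1 of 49 (Pcdhga1), against 0.955% of genes, for Base against Middle 0 of 48, against 1.09%, and for Apex against Base 1 of 48 (Pcdha2), against 1.29%. Between Calb2-high and Calb2-lower cells it was 0 of 49, against 2.01%, between Calb2-high and Lypd1-positive cells 0 of 49, against 3.49%, and between Calb2-lower and Lypd1-positive cells 0 of 46, against 1.32%. These counts are near the background shares, and intervals are wide for members present in few cells.

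Pcdha2, the most widely present alpha isoform, was present in 17 of 56 Apex cells (30.4%), 14 of 88 Middle cells (15.9%) and 2 of 42 Base cells (4.76%). By day it was present in 25.0% of 12 Apex cells, 9.62% of 52 Middle cells and 4.88% of 41 Base cells at P26, and in 31.8% of 44 Apex and 26.5% of 34 Middle cells at P27. The order from Apex to Base held within P26, where the intervals of Apex (5.49% to 57.2%) and Base (0.596% to 16.5%) overlap. Base cells came almost only from P26, so place and day cannot be told apart in the pooled shares.

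Pcdhga1, the first isoform of the gamma cluster, was the only member past the limit at P27, and on the same side by at least 0.5 in the other set of days, in the summed counts described below for the genotype, and the only one for Apex against Middle. In Middle P27 Wildtype cells it was present in 10 of 34 cells, with a median of 0 and a highest level of 68.3 CPM. In Vglut3-/- Middle P27 it was present in 1 of 25 cells (highest 49.1 CPM) and in Apex P27 in 1 of 44 (highest 25.6 CPM). In the other set of days it was present in 9 of 54 Wildtype Middle cells, 1 of 15 Vglut3-/- cells and 1 of 12 Apex cells. These comparisons share the same Wildtype Middle cells, so they are not independent. Calb2-high cells had Pcdhga1 in 3 of 43 at P26 and 0 of 18 at P27, and Calb2-lower cells in 8 of 38 and 7 of 32. Vglut3-/- cells are mostly Calb2-high, so genotype and Calb2 level cannot be told apart for this isoform in these cells.

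Summed counts were compared between groups as log2 folds of CPM + 1, among genes with at least 5 CPM in the higher group, with a limit of 1 in size. For Vglut3-/- against Wildtype in the Middle at P27, 7 of 27 members compared were past the limit, 2 higher and 5 lower in Vglut3-/-, against 13.9% of all genes. At the same side by at least 0.5 at P25 and P26 it was 1 of 27, Pcdhga1 (log2 fold -2.21 and -1.23), against 6.58%. At P25 and P26 themselves 10 of 25 members were past the limit, against 15.3%. The members' median log2 fold was 0.16 at P27 and -0.13 at P25 and P26, against 0.04 and 0.08 over all genes. Of the 7 members past the limit at P27, 1 was on the same side by at least 0.5 in the other set. Members are present in few cells, and genes present in equally few cells were not compared on their own.

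Summed counts of a member rest on few cells, and the means of log2(CPM + 1) over cells moved less. By that mean, 2 of 27 members differed by 1 or more between the genotypes at P27, against 16.7% of all genes: Pcdhb3 (3.57 ± 2.56 in Vglut3-/- and 1.53 ± 2.42 in Wildtype, SD over cells) and Pcdhga1 (0.34 ± 1.21 and 1.63 ± 2.33). At P25 and P26 Pcdhb3 lay on the other side (1.02 ± 2.12 and 2.03 ± 2.41).

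For Apex against Middle at P27, 5 of 23 members were past the limit, against 7.93%, and 1 (Pcdhga1, log2 fold -3.02) also lay on the same side by at least 0.5 at P26, against 1.93%. There its log2 fold was -1.42, with under 5 CPM in both groups. At P26, where the Apex has 12 cells, it was 13 of 25, against 10.4%. For Base against Middle at P26 it was 7 of 22, against 8.19%, and 0 of 22 by the mean of log2 values, against 6.88%. By that mean 1 of 23 members differed for Apex against Middle at P27, against 7% of all genes.

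For Lypd1-positive against Calb2-high cells, 11 of 25 members were past the limit at P26, against 13.6%, and 11 of 23 at P27, against 14.1%. Past the limit at P26 and on the same side by at least 0.5 at P27 were 5 of 25, against 7.74%: Pcdha1, Pcdhb12 and Pcdhb14 were higher and Pcdhb17 and Pcdhb18 lower in Lypd1-positive cells. Pcdhb14 was present in 8 of 24 Lypd1-positive and 8 of 43 Calb2-high cells at P26 (33.5 and 11.7 CPM summed), and in 4 of 23 and 3 of 18 at P27 (16.3 and 4.83 CPM). At P27 a single cell held 71.9% of the Pcdhb14 counts of the Lypd1-positive cells. Pcdhb12 was present in 3 of 24 and 1 of 43 cells at P26 and in 8 of 23 and 4 of 18 at P27. Pcdhb17 was present in 7 of 24 and 18 of 43 at P26 and in 7 of 23 and 6 of 18 at P27, and Pcdhb18 in 2 of 24 and 5 of 43 and then in 1 of 23 and 4 of 18. Pcdha1 was present in 2 of 24 and 2 of 43 cells at P26 and in 2 of 23 and 0 of 18 at P27. The shares of all 5 have overlapping intervals. By the mean of log2 values 3 of 25 members differed at P26, against 14.5% of all genes.

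For Calb2-lower against Calb2-high cells, 8 of 22 members were past the limit at P26, against 9.29%, and 8 of 22 at P27, against 9.5%. Of those past the limit at P26, 1 of 22 compared, Pcdhga1, was on the same side by at least 0.5 at P27, against 4.57%, at 8.25 and 1.87 CPM at P26 and 6.48 and 0.247 CPM at P27.

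Other genes of the protocadherin pathway were described by 3 lists. Of the 12 non-clustered protocadherins, which are single genes elsewhere in the genome, Pcdh7 was present in 98.9% of Wildtype cells, Pcdh20 in 51.6%, Pcdh11x in 29% and Pcdh9 in 15.1%. Pcdh20 was lower in Lypd1-positive than in Calb2-high cells at P26 (14.5 and 175.3 CPM, log2 fold -3.51, and -3.30 at P27) and lower in Calb2-lower cells (30 CPM, -2.51 and -2.71). Pcdh20 was listed as a marker of the class with high Calb2, so it is no independent finding. Pcdh9 was lower in Vglut3-/- cells in both sets of days (-3.01 and -2.01) and in Apex against Middle cells (-1.42 and -0.69), which share controls. It was higher in Lypd1-positive than in Calb2-high cells (2.34 and 1.91). Because most Vglut3-/- cells were Calb2-high, genotype and Calb2 level cannot be told apart for Pcdh9. Pcdh17 was at 40.7 CPM in Calb2-lower cells at P26 and had 0 counts in Calb2-high cells, and was at 4.78 and 1.51 CPM at P27. It was present in 3.23% of Wildtype cells, so these sums rest on few cells.

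Of the 19 regulators of promoter choice, the cohesin subunits Smc1a and Smc3 were present in 98.9% and 89.2% of Wildtype cells, Ctcf in 62.4%, the cohesin loader Nipbl in 83.3% and Dnmt3a, a DNA methyltransferase, in 94.1%. Between genotypes 0 of the 18 compared at P27 (13.9% of all genes) and 0 of the 17 compared at P25 and P26 (15.3%) were past the limit, with medians of 0.24 and 0.09. For Apex against Middle at P27 2 of 18 were past it, against 7.93% of all genes. For Lypd1-positive against Calb2-high cells it was 0 of 17 at P26, against 13.6%, and 2 of 18 at P27, against 14.1%. No regulator was past the limit and on the same side by at least 0.5 in its repeat set.

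Of the 22 partners and downstream genes, the WAVE complex genes Cyfip2, Nckap1 and Abi2, which act on the actin skeleton, were present in 99.5%, 95.7% and 97.8% of Wildtype cells. Between genotypes at P27, 1 of the 19 compared was higher and 1 lower in Vglut3-/-, against 13.9% of all genes past the limit, and both lay on the same side by at least 0.5 at P25 and P26. The Wnt co-receptor Lrp6 was higher (34.1 and 13.4 CPM, log2 fold 1.28 and 0.66) and the synaptic adhesion gene Nlgn1 lower (9.28 and 33.9 CPM, -1.77 and -1.56). At P27, 22 of 25 Vglut3-/- and 4 of 34 Wildtype Middle cells were Calb2-high. Genotype and Calb2 level therefore cannot be told apart for these genes. Nlgn1 was higher in Lypd1-positive than in Calb2-high cells (25.8 and 9.35 CPM at P26, 1.37 and 1.65), and so was Adam10, a protease that cleaves protocadherins (149.7 and 57 CPM, 1.38 and 0.65). Marcks, a substrate of protein kinase C that was present in 6.99% of Wildtype cells, was higher in Apex than in Middle cells (22.9 and 6.58 CPM at P27, 1.66 and 1.51) and in Calb2-lower than in Calb2-high cells (7.32 and 2.13 CPM at P26, 1.41 and 4.04).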

How the data were processed

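The deposited counts, whole numbers of reads per gene in each cell, were used as they stand, and the authors' normalized table was not used. The submitters' processing notes name build mm10 and, without role or order, Seurat 1.4.0.12, edgeR 3.14.0, Subread 1.4.6 with featureCounts, STAR 2.4.0 and Trimmomatic 0.33. Which annotation and strand setting were used, and how reads in shared exons were treated, is not given in the sources. No columns of the table were identical. CPM were computed here over genes, without the 92 spike-ins and the reporter. Members and lists were chosen with earlier results of these data known. Named were the C-type isoforms, the 5 most and the least widely present members of each other family, members past the fold limit with the same side in the repeat set by 0.5, the extreme pairs by phi, and list genes by that same rule. Others were chosen after their values were seen. Exact intervals are Clopper-Pearson for shares. The fold step, the variance ratio and the thinning formula were tested on simulated data. For the variance ratio these held far more cells than any group here. Gene positions came from GENCODE M21, in which 56 of 58 isoforms, Pcdhgb included, were matched by symbol; Pcdha10 and Pcdha11 were not. Python 3.11.15, numpy 2.4.6, pandas 2.3.3, scipy 1.17.1, matplotlib 3.10.9 and, for TMM factors, edgeR 4.0.16 in R 4.3.3 were used. Alternatives changed the limit for presence, the depth, the class limits, the fold rule, the scaling and the cells included.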

Additional observations from a re-analysis of the deposited data

Results flagged for a closer look

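In 15 sets of values from groups of 4 or 5 cells, 4 held a cell far from the others by Dixon's criterion, which chance alone meets in about 1 in 20 sets, and sets with nearly all cells at 0 meet it easily. Among the 4 Vglut3-/- Middle P26 cells, Pcdhac1 was at 0.78 CPM in 1 cell and 0 in the others, far under the limit for presence. Among the 5 Calb2-lower Vglut3-/- cells, Pcdhac1 was at 12.0 CPM in 1 cell and at most 0.78 CPM in the others. Among the 5 Th-positive cells, Pcdhgc4 was at 172 CPM in 1 cell and at most 46.4 CPM in the others, and Pcdhgc5 was at 28.9 CPM in 1 cell and 0 in the others. These 2 values belong to the same cell, which had 10 members present.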

How the results depend on the processing

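No paired analysis was possible because each sample is 1 cell and no animal ties cells across groups. Over 16 results, 106 of 131 alternatives stayed within the spread over cells, the interval of the share or 1.5 times the main value, and 25 did not. No main difference of means reached its spread over cells, so none was called and a reversal could not be recorded. For these differences the rule is wide, since the allowed move is larger than the difference itself. The genotype difference at P25 and P26 went from 0.21 to 1.6 and still lay within its spread of 2.11. Staying within the spread is therefore no sign that a difference of means is stable. The limit for presence set the number of members: the Wildtype median of 6 became 10 at 1 count, 10 at 1 CPM and 2 at 50 CPM, and the share of Wildtype cells with a C-type isoform of 82.8% became 94.6%, 94.1% and 36.6%. The variance ratio in Middle P26, 0.977, became 1.54 at 1 CPM and 1.4 at 1 count, on the other side of 1. With cells of 2% spike-ins or more left out, the Apex minus Middle difference became -3.93 at P27 (2 and 15 cells) and -2 at P26 (1 and 3 cells), which rest on too few cells. The order of the means is not stable: it changed sign in 4 of 8 alternatives for the genotype at P25 and P26 and in 6 of 11 for Lypd1-positive against Calb2-high cells at P26, but in 0 of 8 for the genotype at P27. Counts of members past the fold limit (7 for the genotype, 5 for Apex against Middle, 7 for Base against Middle and 11 for Lypd1-positive against Calb2-high cells) became 2, 1, 0 and 3 by the mean of log2 values and 4, 3, 2 and 7 with 5 CPM added. With no minimum level they were 15, 8, 16 and 20. Without cells of 2% spike-ins or more they were 12 of 28, 19 of 23, 16 of 19 and 16 of 23, while the share of all genes past the limit was 16.4%, 40.8%, 30.8% and 25.1%. Among Calb2-high cells only, a setting chosen after seeing the data, the genotype count was 19 of 28, against 25.3% of all genes, with 4 Wildtype cells. Causes of these shifts were not tested beyond the smaller number of cells or the changed rule itself.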
